A study of Mus musculus with 12 samples.

Results

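Jun, Junb and Jund are the 3 genes of the mouse Jun family, and the data are the FRA-1 binding peaks listed around them in peritoneal macrophages. They were chosen by name as 3 of 21887 protein-coding genes of the RefSeq annotation of GRCm38. A peak was counted for a gene where it overlapped the gene body or the 20 kb on either side of it by at least 1 bp. This window was the only rule for the counts, and the segments that carried the symbol of a family gene in the deposited tables added no peak to it. In all, 28 peaks in 18 regions met this rule, out of 300608 regions in the series, a region being a stretch of touching or overlapping peaks of any of the 9 replicates.

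The proteins JUN, JUNB and JUND are transcription factors of the basic leucine zipper class and the partners with which FOS proteins build the dimeric factor AP-1. FRA-1, encoded by Fosl1, is a FOS protein. It does not form stable pairs with itself and typically binds DNA together with a JUN protein, and the Jun family genes thus encode its partners. In macrophages, Jun and Junb are induced early after a stimulus such as LPS, a component of the wall of Gram-negative bacteria, whereas Jund is known for steadier expression. JUN is a strong activator and is known to act on its own promoter, JUNB activates some targets weakly and can oppose JUN, and JUND is often tied to restrained growth.

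The study mapped FRA-1 by chromatin immunoprecipitation and sequencing (ChIP-seq) in macrophages that were kept unstimulated or exposed for 1 h either to LPS or to apoptotic cells, and each of these conditions had 3 replicates. The paper used the unstimulated and LPS data to look for FRA-1 at inflammatory genes. The mice were 8 weeks old and male or female by the sample records, and carried no transgene or deletion that the records name. The sample records give a mixed 129/C57Bl6 background, thioglycollate elicitation with lavage 72 h later and LPS at 1 µg/mL. The design text instead gives C57Bl/6, lavage with no elicitation named, overnight plating and LPS at 10 µg/mL. Both give a ratio of 1:5 for apoptotic cells. The sample records name the same 3 mouse labels in every condition, whereas the design text counts 9 mice, and the score columns carry no mouse label. The replicates are therefore numbered by column order, and p-values measure only the spread between these columns. The 3 input samples were not used here, and peak tables hold no RNA, so that the macrophage identity of the cells was not checked by marker genes.

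The replicates held between 20981 and 79474 peaks, and the read depth behind them is unknown because the tables give peak scores and not counts. The score is taken here to be higher for a stronger peak, which the sources used here do not state, and its unit is not given in them. It was not scaled between replicates, so its percentile among all peaks of the same replicate is given beside it. Many peaks share a score, and the tied value 111.27 was held by 8.26% of the peaks of apoptotic cell replicate 3. The smallest peak was 104 to 116 bp wide in 4 replicates, called narrow here (unstimulated 3, LPS 1 and 3, apoptotic cells 3), and 158 to 172 bp in the other 5, called wide. The median width was 140, 121, 113 and 172 bp in the narrow replicates, in this order, and 190 to 223 bp in the wide ones. By its median, apoptotic cell replicate 3, the only narrow replicate of its condition, thus lay nearer to the wide class. Unstimulated replicate 3 was likewise the only narrow replicate of its condition. LPS replicates 1 and 3, which held more peaks, shared 30.7% and 34.3% of its peaks, whereas unstimulated replicates 1 and 2 shared 9.81% and 10.4%. LPS replicate 2 shared 13.4%, and apoptotic cell replicates 1, 2 and 3 shared 22.0%, 18.9% and 20.2%. How far unstimulated replicates 1 and 2 matched each other was not measured. Whether unstimulated replicate 3 differs more from them than they do from each other therefore cannot be said. Width class and replicate move together with several of the results, and their part in them was not tested.

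Around the 3 genes, Junb held the most FRA-1 peaks and the highest-scoring ones, Jun held as many peaks after apoptotic cells as Junb but at scattered places, and Jund held few. Summed over the 9 replicates there were 15 peaks near Junb, 9 near Jun and 4 near Jund. Because the windows are of similar length (41840 bp for Junb, 43187 bp for Jun and 42878 bp for Jund), the order per length was the same, with 35.9, 20.8 and 9.33 peaks per 100 kb. Among the 3458 protein-coding genes with a body of 1 to 5 kb, the size of the Jun family genes, the median was 6 peaks. Of these genes, 93.6% had fewer peaks than Junb, 74.7% had fewer than Jun and 25.3% had fewer than Jund. Peaks were listed in 7 of 9 replicates for Junb, in 5 for Jun and in 3 for Jund. In these sums a region listed in several replicates counts once for each of them. Counted as separate regions, Jun had 9, Junb 6 and Jund 3.

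**Figure D1:**
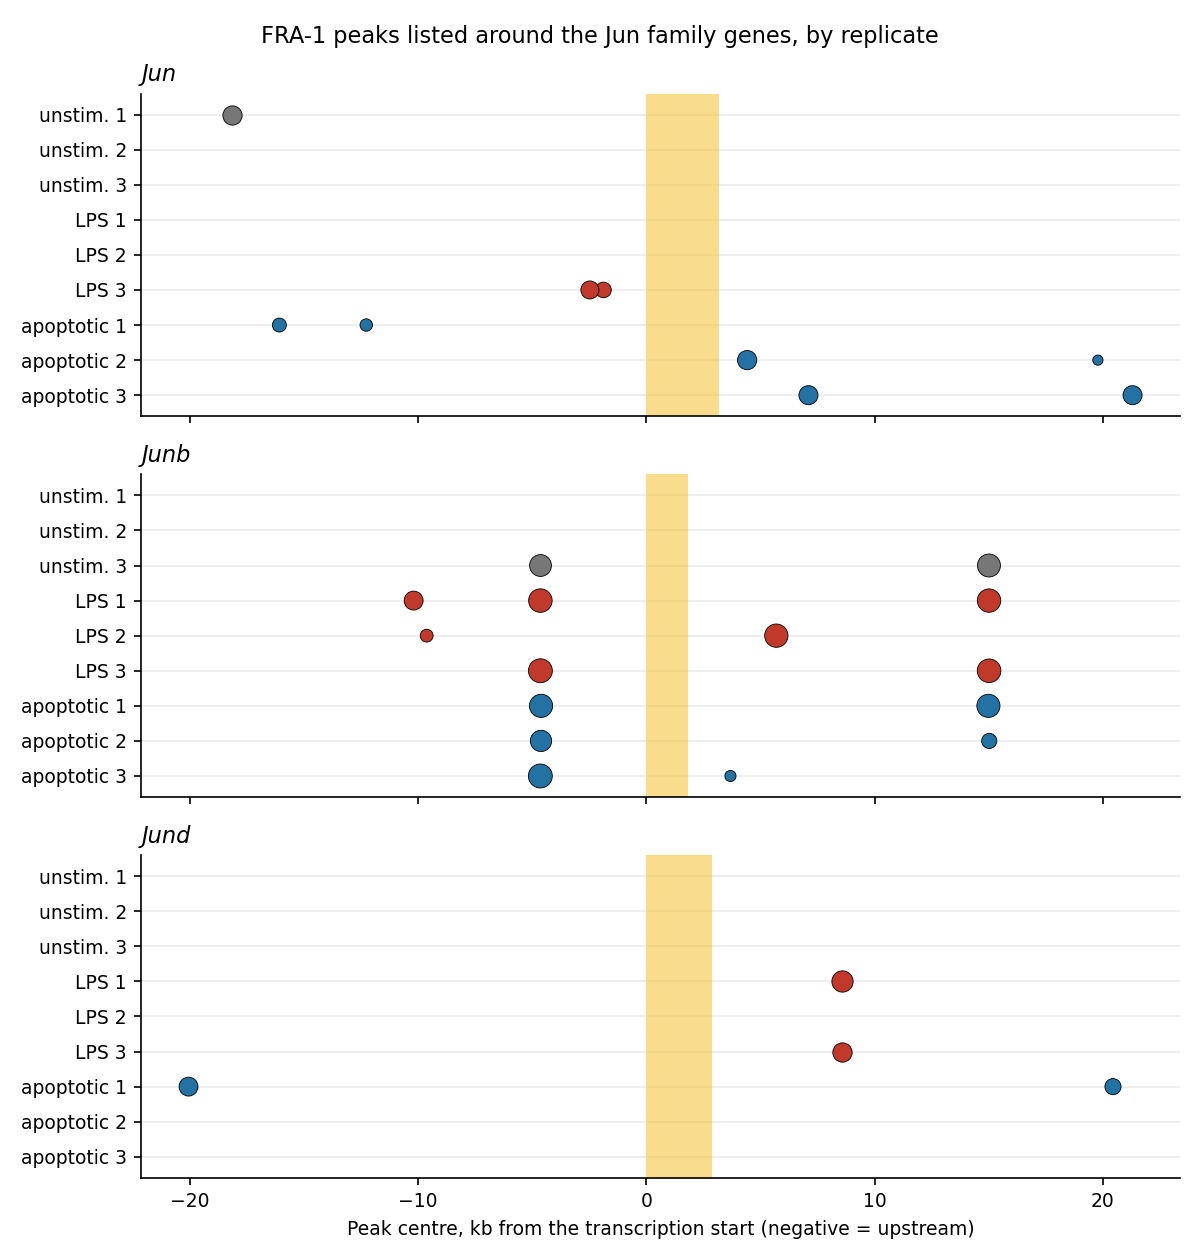
The map shows every listed FRA-1 peak around each gene by its distance from the transcription start (kb, in the direction of transcription), with 1 line per replicate. The yellow band is the gene body, and a dot grows with the percentile of its score within its replicate. Peaks line up over several replicates at 2 places near Junb and 1 near Jund and at no place near Jun.

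The gene bodies and promoters themselves were free of listed peaks. Jun lies on chr4:95049036-95052222 and Junb on chr8:84976909-84978748, both on the minus strand, and Jund lies on chr8:70697739-70700616 on the plus strand (GRCm38). No replicate had a peak in the body of any of these 3 genes, and only 26.8% of the genes of 1 to 5 kb held at least 1. No replicate had a peak in the stretch from 250 bases before to 50 bases after their starts, and only 4.77% of 27025 such RefSeq promoters held one. With 3 genes and shares this low, the absence is not read as a trait of the family. All 28 peaks thus lay outside these 3 gene bodies.

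The 250 bases before each start are shown because AP-1 is known to act at the Jun promoter and no FRA-1 peak was listed there. They are RefSeq sequences of GRCm38.p6, written in the direction of transcription for chr4:95052223-95052472 (Jun, minus strand), chr8:84978749-84978998 (Junb, minus strand) and chr8:70697489-70697738 (Jund, plus strand). Capitals mark matches on either strand to TGANTCA (the TPA response element, N for any base), TGACGTCA (the cyclic AMP response element), TGACATCA and TTACCTCA (variants known from the Jun promoter).
Jun: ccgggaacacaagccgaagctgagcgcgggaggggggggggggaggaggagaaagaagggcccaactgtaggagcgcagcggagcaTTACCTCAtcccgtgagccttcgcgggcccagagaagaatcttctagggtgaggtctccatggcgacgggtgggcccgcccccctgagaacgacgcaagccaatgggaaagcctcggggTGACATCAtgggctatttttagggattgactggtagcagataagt
Junb: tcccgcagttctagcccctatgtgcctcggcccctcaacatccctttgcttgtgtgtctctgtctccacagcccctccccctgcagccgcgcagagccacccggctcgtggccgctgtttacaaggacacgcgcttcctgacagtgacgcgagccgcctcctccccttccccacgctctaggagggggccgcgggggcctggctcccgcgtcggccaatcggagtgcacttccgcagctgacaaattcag
Jund: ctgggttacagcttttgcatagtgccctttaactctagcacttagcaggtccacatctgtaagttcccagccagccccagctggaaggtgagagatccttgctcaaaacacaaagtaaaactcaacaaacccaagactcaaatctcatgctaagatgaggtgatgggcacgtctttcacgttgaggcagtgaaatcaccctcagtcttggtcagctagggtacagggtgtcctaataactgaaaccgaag

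The Jun promoter held TGACATCA, 45 to 38 bases before the start, and TTACCTCA, 164 to 157 bases before it. The promoters of Junb and Jund held none of the 4 motifs. Among all 27025 promoters, 3.02% held TGACATCA, 0.714% TTACCTCA, 6.87% TGANTCA and 1.62% TGACGTCA. TTACCTCA was added to the search after the sequence had been seen, and TGANTCA, TGACGTCA, TGACATCA and TTACCTCA do not contain one another. A match describes the letters alone. The sequences under the peaks themselves were not analysed here.

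Jun, the founding member of the family, had 1, 0 and 0 peaks in the unstimulated replicates, 0, 0 and 2 in the LPS replicates and 2, 2 and 2 in the apoptotic cell replicates. Every apoptotic cell replicate was above every unstimulated one, whereas the LPS replicates overlapped the unstimulated ones. The means were 0.333 ± 0.577 (SD, n = 3) unstimulated, 0.667 ± 1.15 after LPS and 2.0 ± 0 after apoptotic cells. In the order of these means, LPS and unstimulated macrophages did not differ beyond their spread. The difference between apoptotic cells and no stimulation had p = 0.1 in a two-sided exact permutation test, the smallest p that 3 replicates against 3 can give, and 1.0 after Benjamini-Hochberg adjustment over all genes. The exact permutation p was 1.0 for LPS against unstimulated and 0.4 for LPS against apoptotic cells.

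The separation at Jun is read against the background of all genes. It held for 1 of the 3 family members, against 6.57% of all protein-coding genes and 3.76% of those of 1 to 5 kb. For LPS above unstimulated it held for 0 of the 3 members, against 9.87% of all genes and 5.35% of the genes of 1 to 5 kb. Both comparisons share the unstimulated replicates. Within the wide class, Jun had 2 peaks in each of 2 apoptotic cell replicates and 0 to 1 in the 2 unstimulated ones, and within the narrow class 2 peaks in 1 replicate against 0 in 1.

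The 6 peaks after apoptotic cells lay at 6 different places, each in 1 replicate, and no region near Jun was shared between any 2 of the 9 replicates. Their scores ran from 75.28 to 148.26. The highest, in replicate 2, covered chr4:95047693-95047921, 1115 bp past the 3′ end of Jun, at the 58.6th percentile of its replicate. Replicate 3 had 2 peaks with the score 111.27 past the 3′ end, replicate 1 had peaks 12081 and 15948 bp upstream with scores of 86.63 and 91.25, and replicate 2 had a further peak of score 75.28 at the 7.56th percentile. When only peaks overlapping a peak of another replicate of the same condition were kept, Jun had 0 peaks in every condition. With the 20981 top-scoring peaks of each replicate, the difference between apoptotic cells and no stimulation was 0 peaks. It was 0.67 with 5 kb windows, with scores of at least 100 and with scores above the replicate's median, against 1.67 with all peaks within 20 kb, and the replicates of both conditions overlapped in each of these settings (exact permutation p = 0.4, 0.7 and 0.7). The replicates stayed apart with 50 kb windows (2.0 peaks) and with peak centres (1.67), with an exact permutation p of 0.1 each. At 50 kb, 10.0% of all genes showed this separation, and apoptotic cell replicates still shared no region near Jun.

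The peaks nearest to the start of Jun came from LPS replicate 3. They covered chr4:95054044-95054154, 1822 to 1932 bp upstream, scoring 143.68 (34.4th percentile), and chr4:95054639-95054748, 2417 to 2526 bp upstream, scoring 180.72 (49.95th percentile). These are the only 2 segments that the deposited tables assign to Jun. The single unstimulated peak, in replicate 1, lay 18069 bp upstream and scored 140.93 (58.5th percentile). All 5 regions upstream of Jun lie in the annotated body of Junos, a long non-coding RNA gene next to Jun.

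Junb had 0, 0 and 2 peaks in the unstimulated replicates, 3, 2 and 2 in the LPS replicates and 2, 2 and 2 in the apoptotic cell replicates. Unstimulated replicate 3 reached the level of the stimulated replicates, and the other two unstimulated replicates had no peak. The means were 0.667 ± 1.15 (SD, n = 3) unstimulated, 2.33 ± 0.577 after LPS and 2.0 ± 0 after apoptotic cells. The exact permutation test, two-sided, gave p = 0.3 for LPS against unstimulated (adjusted 0.98), p = 0.4 for apoptotic cells against unstimulated (adjusted 1.0) and p = 1.0 for LPS against apoptotic cells. No neighbours in the order of the means therefore differed beyond the spread between replicates. Without unstimulated replicate 3, LPS exceeded unstimulated by 2.33 peaks and apoptotic cells by 2.0, each with an exact permutation p of 0.2, the smallest for 3 replicates against 2. Without unstimulated replicate 1 or 2 instead, these differences were 1.33 and 1.0 (exact permutation p = 0.6 and 0.8). With peaks shared between replicates of a condition only, Junb had 0, 0 and 0 peaks unstimulated and 2, 2 and 1 after apoptotic cells. Of all genes, 5.90% showed such a separation. The filter worked within each condition and dropped the 2 peaks of unstimulated replicate 3, which no other unstimulated replicate shared. No p-value is given for it, because the condition itself decided which peaks were kept. Within the wide class, Junb had 0 peaks in both unstimulated replicates, 2 in the LPS replicate and 2 in each apoptotic cell replicate. Within the narrow class, it had 2 unstimulated, 2 to 3 after LPS and 2 after apoptotic cells.

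**Figure D2:**
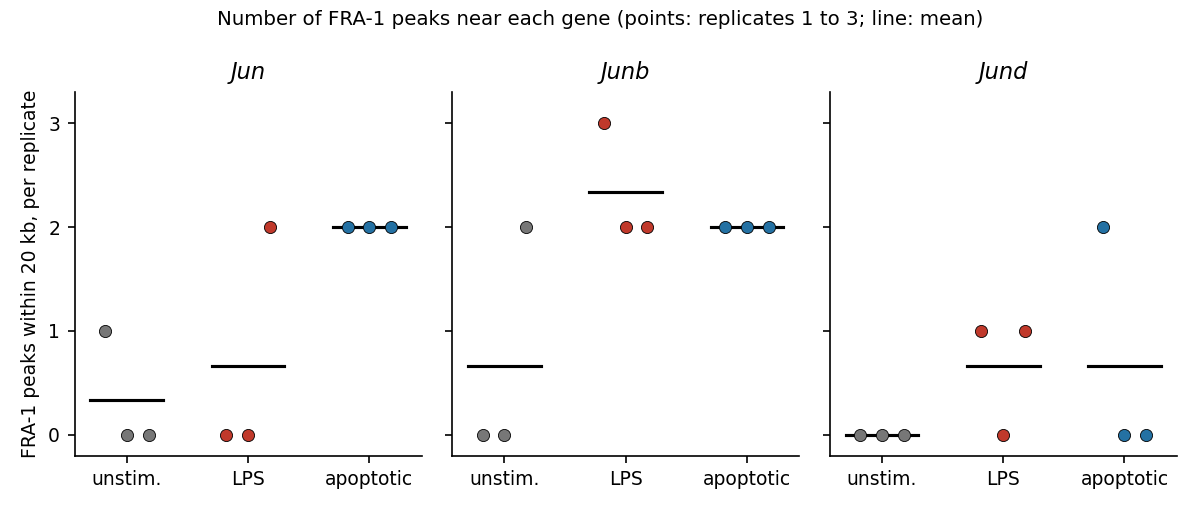
The plot gives the number of listed FRA-1 peaks within 20 kb of each gene (vertical axis) for the 3 replicates of each condition (points) and their mean (line). Jun had 2 peaks in every apoptotic cell replicate, Junb had 2 to 3 in every stimulated replicate and in unstimulated replicate 3, and Jund had 0 to 2.

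Most of the Junb peaks fell on a pair of regions that were each listed in several replicates. The first, chr8:84983274-84983444, is 171 bp long, lies 4526 to 4696 bp upstream of the start and overlaps no annotated gene. A peak was listed there in 1 of 3 unstimulated, 2 of 3 LPS and 3 of 3 apoptotic cell replicates. The score was 196.70 in unstimulated replicate 3, 314.12 and 448.80 in LPS replicates 1 and 3, and 211.84, 175.18 and 242.95 in apoptotic cell replicates 1, 2 and 3. The highest score was that of LPS replicate 3, and the apoptotic cell scores lay on both sides of the unstimulated one. The percentiles were 78.9 unstimulated, 93.7 and 97.1 after LPS, and 90.3, 74.3 and 97.5 after apoptotic cells. All 6 peaks had 108 bp in common, chr8:84983335-84983442. It is the only region that the deposited tables assign to Junb, with 1 segment in the unstimulated, 2 in the LPS and 3 in the apoptotic cell table.

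A peak in at least 6 of 9 replicates was found at 1.67% of all regions of the series, and a peak in all 3 apoptotic cell replicates at 1.40%. Fisher's exact test on the replicates with and without a peak gave p = 1.0 for LPS against unstimulated, 0.4 for apoptotic cells against unstimulated and 1.0 for LPS against apoptotic cells, two-sided, with 0.1 as the smallest possible p. Width class moved with the listing. In the narrow class all 4 replicates, the unstimulated one included, had the peak, and in the wide class it was listed in 0 of 2 unstimulated, 0 of 1 LPS and 2 of 2 apoptotic cell replicates.

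The second region, chr8:84963616-84963851, is 236 bp long and lies 13058 bp past the 3′ end of Junb, inside Rnaseh2a, which encodes the catalytic subunit of RNase H2. Its score was 244.10 in unstimulated replicate 3, 290.79 and 404.47 in LPS replicates 1 and 3, and 211.84 and 113.81 in apoptotic cell replicates 1 and 2. Here too the LPS scores were the highest, at the 92.1st and 94.1st percentile, and that of apoptotic cell replicate 2 was the lowest, at the 31.6th. A peak was thus listed in 1, 2 and 2 of 3 replicates, and Fisher's exact test gave p = 1.0 for each of the 3 pairs of conditions. The 5 peaks shared 113 bp, chr8:84963682-84963794. Regions with a peak in at least 5 of 9 replicates made up 2.30% of all regions.

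The other 4 regions near Junb were each listed in 1 replicate. LPS replicate 2, the wide LPS replicate that lacked both shared regions, had a peak of score 228.68 at the 91.8th percentile on chr8:84972945-84973164, inside Prdx2, a gene for a peroxide-reducing enzyme, and one of score 89.10, 9494 bp upstream of Junb. LPS replicate 1 had a peak of score 136.64 inside Hook2, a gene for a microtubule-binding protein, 10136 bp upstream. Apoptotic cell replicate 3 had one of score 69.80, 1751 bp past the 3′ end, at the 11.3th percentile. The count of 2 peaks in LPS replicate 2 thus came from other places than the counts of LPS replicates 1 and 3.

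**Figure D3:**
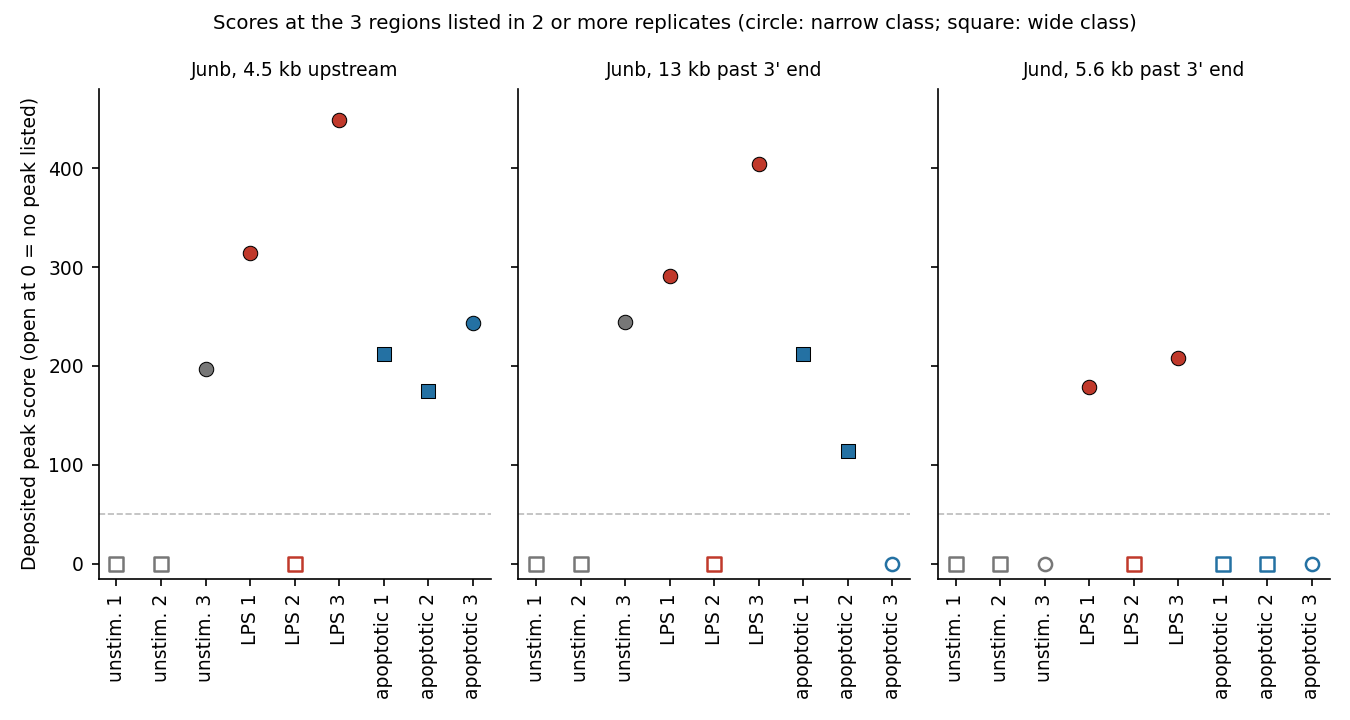
Deposited peak scores (vertical axis) are plotted for the 9 replicates at the 3 regions listed in more than 1 replicate, with circles for the narrow and squares for the wide class, open symbols at 0 where no peak was listed and a dashed line at the lowest deposited score. LPS replicates 1 and 3 hold the highest scores at both Junb regions and are the only replicates with a peak at the Jund region. Scores are not scaled between replicates. By percentile within the replicate, apoptotic cell replicate 3 is the highest at the upstream Junb region (97.5, against 97.1 in LPS replicate 3).

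Jund had 0 peaks in each unstimulated replicate, 1, 0 and 1 in the LPS replicates and 2, 0 and 0 in the apoptotic cell replicates. All 3 conditions overlapped at 0 within 20 kb. The mean was 0.667 ± 0.577 (SD, n = 3) after LPS and 0.667 ± 1.15 after apoptotic cells, and the exact permutation p, two-sided, was 0.4 for LPS against unstimulated and 1.0 for the other 2 pairs. The adjusted values were 0.98 for LPS and 1.0 for the others. A listing of 0 says only that the deposited table lists no peak. With 50 kb windows the counts were 1, 1 and 1 unstimulated, 2, 2 and 5 after LPS and 4, 2 and 5 after apoptotic cells, so that both stimulated conditions lay above the unstimulated one, by 2.0 and 2.67 peaks (exact permutation p = 0.1 each). With such windows, 15.5% of all genes had every LPS replicate and 10.0% every apoptotic cell replicate above every unstimulated one.

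Both LPS peaks near Jund fell on 1 region, chr8:70706263-70706373, which is 111 bp long, 5647 bp past the 3′ end of Jund and inside Iqcn, the next gene. The score was 178.77 in LPS replicate 1 and 208.17 in LPS replicate 3, at the 74.5th and 59.2nd percentile. Both are narrow replicates, and the other 2 narrow replicates, 1 unstimulated and 1 with apoptotic cells, had no peak there. Fisher's exact test gave p = 0.4 for LPS against either of the other conditions. Of all regions of the series, 2.82% had a peak in at least 2 LPS replicates and in no other replicate. The apoptotic cell peaks were both from replicate 1, with a score of 129.52, 19962 bp upstream inside Lsm4, a gene for an RNA-binding protein of the splicing and decay machinery, and a score of 110.09, 17452 bp past the 3′ end. The deposited tables assign no segment to Jund.

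Over the 3 genes, 15 of the 18 regions were listed in 1 replicate and 3 in at least 2, next to 10.3% of all regions of the series. With only 18 regions, this is not read as a difference from the series. The 15 peaks of the regions seen in 1 replicate had scores from 69.80 to 228.68 with a median of 111.27, and a median percentile of 49.95. The 13 peaks of the 3 shared regions had scores from 113.81 to 448.80 with a median of 211.84, and a median percentile of 90.3. By gene, the median score was 211.84 near Junb, 154 near Jund and 111.27 near Jun. Regions listed in all 9 replicates made up 0.456% of the series, and 0 of the 18 regions were of this kind.

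Within single conditions, a region shared by at least 2 replicates was present for 0 of the 3 genes without stimulation, against 7.69% of genes of 1 to 5 kb. After LPS it was present for Junb and Jund, 2 of 3, against 33.3%, and after apoptotic cells for Junb, 1 of 3, against 14.5%. The LPS regions rest on LPS replicates 1 and 3, and without either of them no region near Junb or Jund was shared between LPS replicates. Near Junb, 2 regions were shared between apoptotic cell replicates 1 and 2, and 1 was left without either. The symbol of at least 1 of the 3 genes stood in every deposited table, namely Junb in the unstimulated table (1 of 3 genes, against 13.4% of all genes), Jun and Junb in the LPS table (2 of 3, against 24.9%) and Junb in the apoptotic cell table (1 of 3, against 24.0%).

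The other genes of the pathway were given by a list of 21, made of the 4 Fos genes, 13 ATF, BATF and MAF genes, whose proteins are related leucine zipper factors, and 4 kinases of the JNK pathway, which phosphorylate JUN or act just before the kinases that do. All 21 had at least 1 peak within 20 kb, as had 98.8% of all protein-coding genes. Their median was 17.6 peaks per 100 kb, against 20.8 for the Jun family and 14.4 for all protein-coding genes. The Fos genes had 12.7 to 22.8 peaks per 100 kb, so that Junb with 35.9 lay above and Jund with 9.33 below all 4. In the list, 2 genes had LPS replicates all above the unstimulated ones (Mafg and Mapk8) and 1 had apoptotic cell replicates all above them (Mafg), next to the 9.87% and 6.57% of all genes. These names were singled out after their values had been seen. A region shared by at least 2 replicates was present for 2 of the 21 genes without stimulation, 9 after LPS and 3 after apoptotic cells, next to 13.6%, 48.7% and 24.4% of all protein-coding genes.

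By mean number of peaks, the highest of the list were Atf7 with 34 peaks, Mapk8, the gene for the kinase JNK1, with 25 and Atf2 with 22. These are long genes with wider windows, and per length they had 24.4, 22.8 and 18.9 peaks per 100 kb, below the 35.9 of Junb. The highest of the list per length was Atf4, named after its values had been seen, with 33.0 peaks per 100 kb. It had 14 peaks, listed in 7 of 9 replicates, and so lay close to Junb. Atf7 had 3, 1 and 2 peaks unstimulated, 7, 2 and 5 after LPS and 3, 3 and 8 after apoptotic cells. Mapk8 had 2, 0 and 1 peaks unstimulated, 4, 3 and 3 after LPS and 1, 1 and 10 after apoptotic cells. Atf2 had 2, 0 and 3 peaks unstimulated, 1, 4 and 5 after LPS and 0, 3 and 4 after apoptotic cells. At Atf7, Mapk8 and Atf2, apoptotic cell replicate 3, which had the most peaks of the series, gave the highest count of its condition. Jun and Junb had 2 peaks in each of the 3 apoptotic cell replicates. Even counts were not particular to them, as Batf2 of the list, named after its values had been seen, had 1, 1 and 1.

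**Figure D4:**
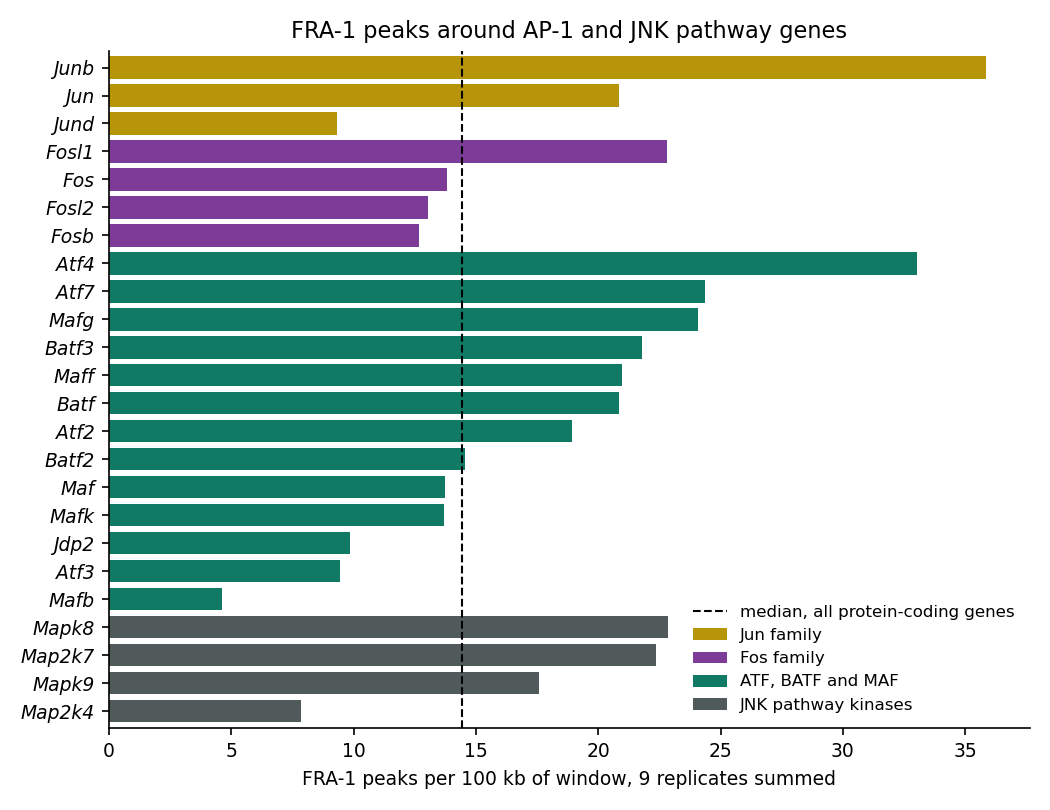
The bars show the 3 Jun family genes and the 21 listed genes, grouped by family, by FRA-1 peaks per 100 kb of window (horizontal axis), summed over 9 replicates, with a dashed line at the median of all protein-coding genes at 14.4. Junb is the highest of the 24 genes at 35.9, followed by Atf4 at 33.0, and Jund is among the lowest at 9.33.

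The likeness of other genes to each Jun family gene was taken as Pearson's r of the number of peaks over the 9 replicates, as a description. The counts are small whole numbers that share the replicates' total numbers of peaks, so that many genes come out alike. The most similar to Jun were Ccdc85c with r = 0.97, Adamts5 with 0.96 and Ccdc169 with 0.95, and 23 of 21622 genes reached 0.9. For Junb they were Zfp771, which had the same 9 counts as Junb, Dctpp1 with r = 0.95 and Btn2a2 with 0.95, and 17 of 21615 genes reached 0.9. Zfp771 and Dctpp1 are neighbours on chromosome 7, and their windows overlap. For Jund, 5 genes had r = 1.0, among them Fahd1, Gm815 and Il25, the first by name, and 72 of 21617 reached 0.9.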

How the data were processed

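FRA-1 ChIP libraries of 9 samples and 3 inputs were sequenced as single reads. The submitters' processing notes name BWA 0.7.14, bedtools and the builds mm10 and GRCm38 without their roles; the peak caller behind the deposited tables is not given in the sources used here, and the MACS2 calling described in the paper belongs to its own later re-analysis of the reads. The authors deposited 1 headerless table per condition, which lists segments with a peak score for each of 3 replicates (-1 where a replicate has no peak), the number of replicates with a peak, the sum of the scores and an assigned gene. The number and the sum matched the score columns in 100.0% of the segments. No score column was left unmapped to a condition. Peaks appear to have been called in each replicate. The inputs were not used here.

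Each replicate's peaks were rebuilt from adjacent segments of equal score, and regions are unions of overlapping or touching peaks over the 9 replicates. Positions are 1-based. Peaks within 20 kb of RefSeq gene bodies (GRCm38) were counted per replicate and compared by two-sided exact permutation tests over the 3 against 3 replicates, with Benjamini-Hochberg adjustment over all protein-coding genes, and regions by Fisher's exact test. The width classes were split at 140 bp on the smallest peak of each replicate, a limit set after seeing the data. Named genes were the members with their regions, and of the list of 21 those with the 3 highest mean numbers of peaks, besides the 3 genes most like each member. Members and lists were chosen with earlier results of these data known. Protein sequences and motifs under peaks, both planned, were not analysed here. Alternatives covered the window, score limits, equal numbers of peaks, shared peaks, the peak centre, the deposited symbol, the merging gap and each replicate left out. The code was tested on simulated peaks and ran on scipy 1.17.1, pandas 2.3.3 and numpy 2.4.6 under Python 3.11.15, with figures by matplotlib 3.10.9.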

Additional observations from a re-analysis of the deposited data

How the results depend on the processing

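With 3 replicates a condition, no test of a single gene can go below an exact p of 0.1, and no read counts are known, so that a missing peak and a peak just under the calling limit cannot be told apart. No paired analysis was possible because nothing ties a score column to a mouse. The causes of the changes below were not tested.

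Differences are in mean peaks per replicate. With 5 kb windows, apoptotic cells minus unstimulated at Jun was 0.67 (1.67 within 20 kb) and the replicates overlapped, as they did with scores of at least 100 or above the replicate's median (0.67 each). At 5 kb, LPS minus apoptotic cells was 0 for Jun and -0.33 for Junb, and Jund differed by 0 from unstimulated after LPS and after apoptotic cells. Regions in at least 2 replicates numbered 1 for Junb after LPS, 1 after apoptotic cells and 0 for Jund after LPS. With 50 kb windows, LPS minus apoptotic cells was -0.67 for Jund and 2.67 for Junb (0.33 within 20 kb), both stimuli lay above unstimulated at Jund, and the regions numbered 4 for Junb and 3 for Jund after LPS, with 1 for Jund after apoptotic cells and 1 unstimulated. With peaks above the median score of their replicate, LPS minus unstimulated was -0.33 for Jun, apoptotic cells minus unstimulated was 0 and LPS minus apoptotic cells 0.67 for Jund, and 1 region remained for Junb after apoptotic cells. With 20981 peaks in each replicate, Jun gave -0.33 for LPS and 0 for apoptotic cells, each minus unstimulated, and the regions numbered 1 for Junb after apoptotic cells and 0 for Jund after LPS. Under both of these settings, the share of replicates with a peak at the Junb region inside Rnaseh2a differed by 0 percentage points between apoptotic cells and unstimulated and by 33.3 between LPS and apoptotic cells. With shared peaks only, all 3 differences at Jun were 0, LPS minus apoptotic cells was -0.33 for Junb, and Jund gave 0 for apoptotic cells minus unstimulated and 0.67 for LPS minus apoptotic cells. Counting peak centres gave 0.33 for LPS minus apoptotic cells at Jund. With deposited symbols only, Jun gave 0 for apoptotic cells minus unstimulated and 0.67 for LPS minus apoptotic cells, Junb gave -0.33 for the latter, and Jund gave 0 for LPS and 0 for apoptotic cells, each minus unstimulated.

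The share of all genes with LPS above unstimulated was 1.78% with equal numbers of peaks, 6.38% with 5 kb windows, 15.5% with 50 kb windows and 5.35% among genes of 1 to 5 kb. For apoptotic cells it was 1.37%, 3.87%, 10.0% and 3.76%, and 3.94% with scores of at least 100. The 50 kb shares and those by gene size were chosen after seeing the data.

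Leaving out each replicate in turn, LPS minus unstimulated at Jun ran from -0.33 (without LPS replicate 3) to 0.67. LPS minus apoptotic cells ran from 0 to 0.50 at Junb and from -0.33 to 0.67 at Jund, and apoptotic cells minus unstimulated at Jund from 0 (without apoptotic cell replicate 1) to 1.0. Shared regions after LPS ran from 0 to 2 for Junb and from 0 to 1 for Jund, and after apoptotic cells from 1 to 2 for Junb. LPS minus apoptotic cells ran from -33.3 to 33.3 percentage points at the Junb region inside Rnaseh2a and from -50.0 to 0 at the upstream one. The other 233 recomputed values kept their sign or, for counts and shares of genes, stayed within 1.5 times, though differences among them changed in size.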
